A study of Mus musculus with 8 samples.

Results

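The 10 genes described here encode RNA-binding proteins that set cell-type patterns of alternative splicing: the muscleblind-like genes Mbnl1, Mbnl2 and Mbnl3, the epithelial splicing regulators Esrp1 and Esrp2, Rbfox2, Celf1, and the STAR family genes Qk, Khdrbs1 and Khdrbs3. They were chosen by name, and each was found in the count table by the Ensembl identifier that carries its symbol, so that 10 of 55335 genes are described. The cells were E14 mouse embryonic stem cells (ESCs), a feeder-independent line grown here on gelatin with LIF and the inhibitors CHIR99021 and PD0325901. All 4 groups carried a lentiviral shRNA and were selected with puromycin: a scrambled shRNA in the control, labelled NG, and an shRNA against Sox2, Hnrnpk or Cdk9 in the knockdown (KD) groups. Each group had 2 biological replicates, and all values come from poly(A) RNA-seq counts per gene. The sources used here do not say which of the paper's shRNAs against each target a library received.

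Regulators of this kind bind short motifs in pre-mRNA and raise or lower the use of nearby exons, so that a change in their amount can alter the isoforms of many genes at once. MBNL proteins bind motifs with a GC core and hold back exons typical of ESCs. RBFOX2 binds UGCAUG, CELF1 binds GU-rich RNA and often acts against MBNL proteins, and ESRP1 and ESRP2 promote the exons used in epithelia. The STAR proteins Quaking (from Qk), Sam68 (from Khdrbs1) and SLM2 (from Khdrbs3) bind AU-rich elements through a KH domain. The counts are totals per gene, so that neither the isoforms of these genes nor splicing itself could be read from them.

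In Sox2-KD E14 ESCs, Mbnl2 rose and Khdrbs3 fell, and no other of the 10 genes passed both thresholds against control (an adjusted p below 0.05 and a log2FC beyond ±0.6 in the edgeR quasi-likelihood test). Mbnl2 reached 2.07 times its control level. Khdrbs3 was left at 0.251 of its control level. Esrp2 stood at 1.9 times its control level with an adjusted p of 0.052. In the hnRNPK-KD-labelled libraries and in Cdk9-KD, 0 of the 10 passed. Of all 16504 genes tested, 4.32% passed in Sox2-KD, 2.63% as higher and 1.69% as lower, so that 1 gene higher and 1 lower among 10 is described below gene by gene and not as a property of the group.

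The library totals lay between 16709201 and 17719366 counts, and the 10 genes together took 0.115% to 0.148% of them. Sox2 mRNA was 412 and 530 CPM in control (counts scaled to library size, with TMM factors) and 320 and 284 in Sox2-KD, a log2FC of −0.64 with an adjusted p of 0.0479, a call lost in 11 of 16 alternatives, while the log2FC without any 1 library lay between −0.83 and −0.46. Cdk9 was 109 and 129 CPM in control and 73.1 and 53.2 in Cdk9-KD, a log2FC of −0.91 with an adjusted p of 0.0985. Hnrnpk was 1094 and 1131 CPM in control but 697 and 1144 in the hnRNPK-KD-labelled libraries, so that replicate 2 of that group was not lower than control. ESC markers summed to between 6880 and 9203 CPM, with 0 of 10 markers at 0 in any library. Trophectoderm markers summed to 156 and 284 CPM in Sox2-KD against 45.6 to 113 in the other libraries, and primitive endoderm markers to 43.1 and 62.5 against 2.97 to 5.96. The first sum rests on Krt8 and Krt18 (97.1 and 41.4 CPM, then 182 and 82.7 CPM, in the Sox2-KD libraries), while Cdx2 on the same list was 19.8 and 35.1 CPM in control and 6.1 and 6.22 in Sox2-KD (log2FC −2.15, adjusted p = 0.0521), called lower only against the other 2 knockdowns, and Elf5 had at most 2 counts in a library. Of 5 trophectoderm markers tested, Krt8, Krt18, Eomes and Gata3 passed as higher in Sox2-KD against control and 0 as lower. Eomes was 3.83 and 2.58 CPM in control and 8.96 and 9.25 in Sox2-KD (adjusted p = 0.0166). Gata3 had a log2FC of 3.48 (adjusted p = 0.0103). The Eomes and Gata3 calls were lost in 4 of 16 and 3 of 15 alternatives. Eomes also passed as higher in Cdk9-KD against control, at 19.5 and 14.3 CPM (adjusted p = 0.0191). The second sum rests on Dab2 (35 and 54.2 CPM in Sox2-KD). Of 5 primitive endoderm markers tested, Dab2 and Gata6 (log2FC 3.65, adjusted p = 0.0111) passed as higher in Sox2-KD and 0 as lower. Gata3 and Gata6 had at most 5 counts in a control library. Gata4 had 17 counts in both control libraries and 21 and 8 in Sox2-KD. In every library at most 1 of the 7 trophectoderm and 3 of the 7 primitive endoderm markers were at 0, and fibroblast markers summed to between 2.25 and 6.19 CPM. Of 4 fibroblast markers tested with edgeR, only Lum passed in Sox2-KD against control, as higher (log2FC 4.83, adjusted p = 0.027). Lum had 0 and 1 counts in control and 23 and 13 in Sox2-KD, and its call was lost in 5 of 15 alternatives. Col1a2 had 32 and 24 counts in control and 4 and 1 in Sox2-KD. DESeq2 and the likelihood ratio test called Col1a2 lower, but edgeR did not. In bulk RNA, more or fewer cells of a type and more or less RNA per cell cannot be told apart, and the part of these marker genes in the results below was not tested.

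**Figure D1:**
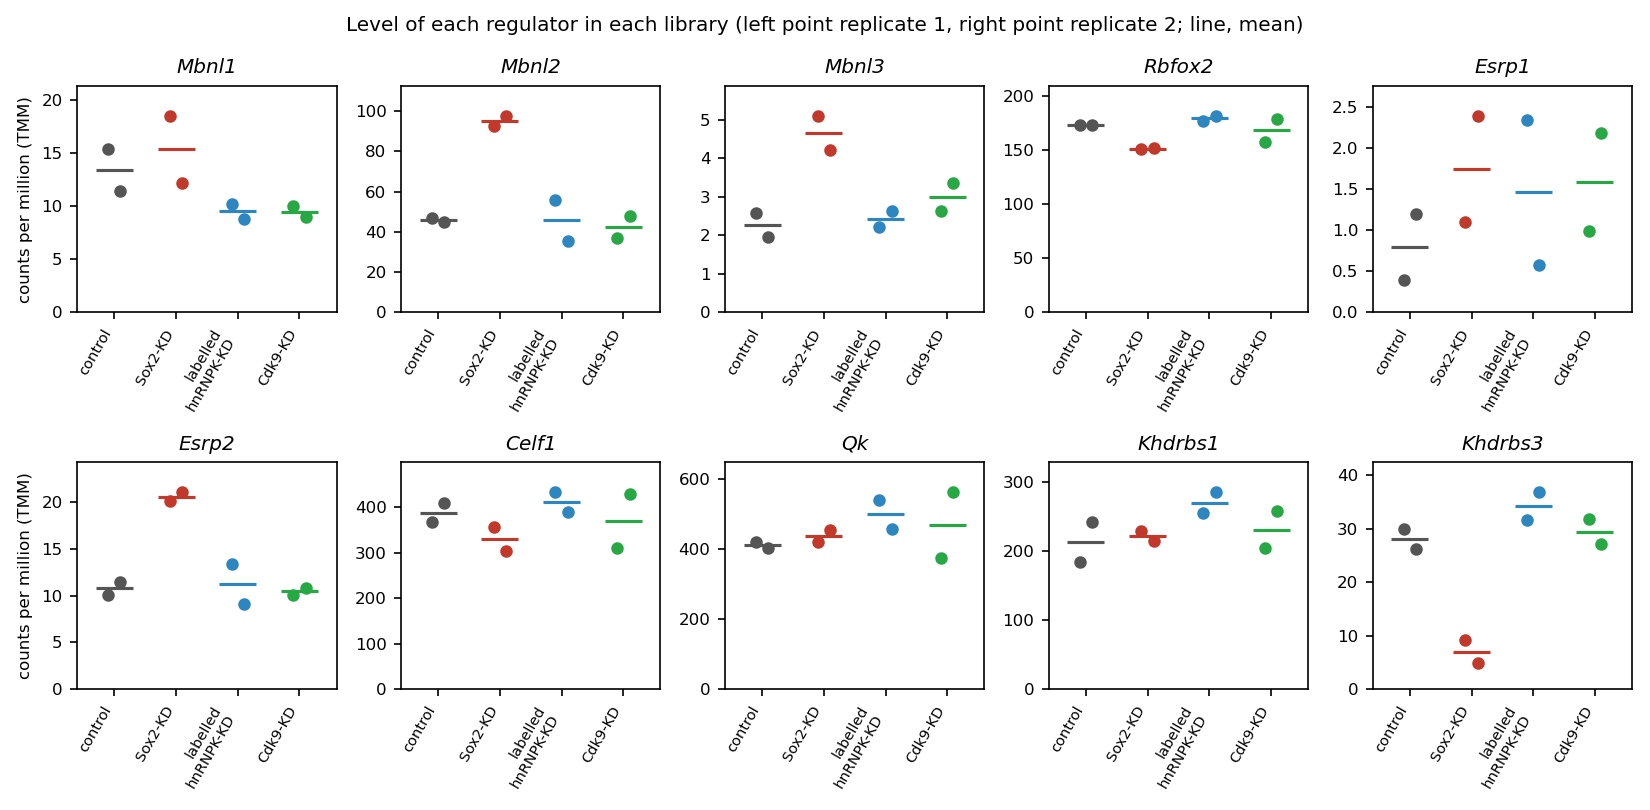
CPM (TMM scaled) of each of the 10 regulators in each of the 8 libraries, 1 panel per gene with an axis from 0, points for libraries and a line for the mean of each group of 2. In Mbnl2 and Esrp2 both Sox2-KD libraries lie above the other 6, and in Khdrbs3 both lie below them.

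Mbnl2 (ENSMUSG00000022139.17) spans 120275669 to 120431697 on chromosome 14 of GRCm38 (+ strand), and encodes a muscleblind-like zinc finger protein. Its level was 47 and 44.7 CPM in the control libraries and 92.6 and 97.8 in Sox2-KD. It was 56 and 35.7 CPM in the hnRNPK-KD-labelled libraries and 36.9 and 47.8 in Cdk9-KD. Both Sox2-KD libraries were thus above all 6 others, while the other 3 groups overlapped. The log2FC in Sox2-KD against control was 1.05 with a standard error of 0.21, a 95% interval of 0.58 to 1.52 and an adjusted p of 0.0228. Against the hnRNPK-KD-labelled libraries it was 1.05 (adjusted p = 0.0212), and against Cdk9-KD 1.17 (adjusted p = 0.00996). In both other knockdowns the log2FC of Mbnl2 against control was near 0, −0.00 with an interval of −0.47 to 0.47 for the hnRNPK-KD-labelled libraries and −0.12 with an interval of −0.59 to 0.35 for Cdk9-KD. The size of the rise held when any of the 8 libraries was left out (log2FC 1.01 to 1.08), but its call against control did not. The adjusted p was 0.118 and 0.142 without control replicate 1 and 2, and 0.0702 and 0.137 without Sox2-KD replicate 1 and 2. In those 4 fits the genes called in all fell from 713 to between 144 and 343.

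The 250 bases before the annotated start of Mbnl2 are shown because Mbnl2 rose in the knockdown of a transcription factor, and SOX proteins bind sequences with the core CTTTGT or CATTGT. Capitals mark the single match to CTTTGT, on the + strand with its first base 185 bases before the start.

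Mbnl2, chr14:120275419-120275668, + strand, GRCm38.p6: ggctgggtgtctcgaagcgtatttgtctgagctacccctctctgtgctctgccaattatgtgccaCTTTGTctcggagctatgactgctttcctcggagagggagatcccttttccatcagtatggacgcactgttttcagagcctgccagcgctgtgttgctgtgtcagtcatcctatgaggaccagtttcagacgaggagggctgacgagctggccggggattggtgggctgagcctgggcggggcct

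The windows searched run from 250 bases before to 50 bases after a RefSeq start, and 5 of the 10 genes had one, in 6 windows. CTTTGT, counted on both strands, occurred in 3 of the 6 (Mbnl2, Mbnl3 and Celf1) and CATTGT in 0. Over all 32851 mouse windows of 300 bases, 18.7% held CTTTGT, 12.6% held CATTGT and 28.6% held at least 1 of them. The matches in Mbnl3 and Celf1 are both on the strand opposite to the gene, so that they read ACAAAG here in capitals, within 30 bases each.

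Mbnl3, chrX:51205985-51206014, − strand, GRCm38.p6: ggtacgactctcACAAAGacgagatttcac
Celf1, chr2:90940220-90940249, + strand, GRCm38.p6: tgcagctctgagACAAAGagatgcacccct

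The match in Mbnl3 begins 12 bases before the start and that in Celf1 165 bases before it. Neither Mbnl3 nor Celf1 passed the test in Sox2-KD, and a match is a run of letters and not a measured site. The windows of Mbnl1, Mbnl2, Mbnl3, Celf1 and Qk differed widely in base composition. GC content was 39.3% and 75% at the starts of Mbnl1, 56.3% at Mbnl2, 59% at Mbnl3, 74.3% at Celf1 and 81.7% at Qk, against a median of 52.7% over all windows.

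Mbnl3, the least abundant of its family in CPM and per length, was read with 34 to 93 counts per library. It was 2.59 and 1.95 CPM in control, 5.11 and 4.22 in Sox2-KD, 2.23 and 2.62 in the hnRNPK-KD-labelled libraries, and 2.63 and 3.37 in Cdk9-KD. Both Sox2-KD libraries were above the other 6. The log2FC against control was 1.04, about that of Mbnl2, but with a wider interval of 0.29 to 1.79, and it did not pass (adjusted p = 0.117). Mbnl1, the member best known from muscle and myotonic dystrophy, was 15.4 and 11.4 CPM in control and 18.5 and 12.2 in Sox2-KD, which overlap. It was 10.2 and 8.79 CPM in the hnRNPK-KD-labelled libraries and 9.99 and 8.93 in Cdk9-KD, below both control libraries in each. The log2FC was −0.50 in both, with adjusted p of 0.699 and 0.553. The CPM of the 3 Mbnl genes summed to 65 and 58.1 in control and to 116 and 114 in Sox2-KD. Per length of merged exons, Mbnl2 made up 77.8% and 81.8% of the family in control and 83.1% and 87.8% in Sox2-KD, and in no library less than 77.8%. With the longest transcript as the length, its share was 72.1% and 76.8% in control and 79.2% and 85.2% in Sox2-KD.

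Khdrbs3 (ENSMUSG00000022332.8) spans 68928420 to 69101211 on chromosome 15 (+ strand), and encodes SLM2, best known as a splicing regulator in brain. It was 29.9 and 26.2 CPM in control and 9.23 and 4.79 in Sox2-KD. The hnRNPK-KD-labelled libraries held 31.7 and 36.9 CPM, and those of Cdk9-KD 31.9 and 27.1. Both Sox2-KD libraries were far below the other 6, although they differed from each other by 1.93 times, on 168 and 84 counts. The log2FC in Sox2-KD against control was −2.00 with a standard error of 0.28, an interval of −2.61 to −1.39 and an adjusted p of 0.00499. It was −2.29 against the hnRNPK-KD-labelled libraries (adjusted p = 0.0029) and −2.07 against Cdk9-KD (adjusted p = 0.00258). The call against control held under all 16 alternatives tried, with adjusted p between 3.57e-10 and 0.0335 and a log2FC between −2.56 and −1.60 when a library was left out. Against control, Khdrbs3 had a log2FC of 0.29 in the hnRNPK-KD-labelled libraries and of 0.07 in Cdk9-KD (adjusted p = 0.861 and 0.96).

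Khdrbs1, which encodes the related and more widely expressed Sam68, did not pass in any comparison. It was 184 and 243 CPM in control, 229 and 215 in Sox2-KD, 255 and 286 in the hnRNPK-KD-labelled libraries, and 204 and 259 in Cdk9-KD. The Sox2-KD libraries lay between the control libraries, with a log2FC of 0.06 (interval −0.33 to 0.44). Per length, Khdrbs1 made up 77.9% and 84.1% of the sum of Khdrbs1 and Khdrbs3 in control and 93.4% and 96.2% in Sox2-KD. Khdrbs2, the other gene of the family, had at most 2 counts in a library and was not tested. A transcript of Gm45422 matched Khdrbs1 over 246 bases at 96.3% identity, and that gene held 0 to 4 counts per library. Qk was 420 and 404 CPM in control, 422 and 456 in Sox2-KD, 542 and 458 in the hnRNPK-KD-labelled libraries, and 375 and 564 in Cdk9-KD. Its Cdk9-KD libraries span the control values, and its log2FC against control was between 0.09 and 0.28 in the 3 knockdowns (adjusted p from 0.785 to 0.844).

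Khdrbs3 had the smallest p of the 10 in the test over all 4 groups, and the genes whose log2 CPM followed it most closely over the 8 libraries were Gm2832, Exosc2, Pitrm1, Jam3 and Polr2h. Their Pearson correlations with Khdrbs3 were 0.994, 0.987, 0.986, 0.986 and 0.984, the highest of 12518 genes compared. The 8 points form groups of 2 that share a treatment, and 68 genes had a correlation over 0.95, so that this is a description. Gm2832, a predicted gene, was 4.17 and 2.64 CPM in control and 0.275 and 0.0571 in Sox2-KD. Jam3, a junctional adhesion molecule, was 40.5 and 38.5 CPM in control and 15.2 and 12.4 in Sox2-KD. The other 3 differed less from control, with log2FC in Sox2-KD of −0.26 for Exosc2, −0.40 for Pitrm1 and −0.63 for Polr2h.

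Esrp2 (ENSMUSG00000084128.10) spans 106130319 to 106136974 on chromosome 8 (− strand). It was 10.1 and 11.5 CPM in control and 20.1 and 21.1 in Sox2-KD. The hnRNPK-KD-labelled libraries held 13.4 and 9.08 CPM, and those of Cdk9-KD 10.1 and 10.8. Both Sox2-KD libraries were above the other 6. The log2FC against control was 0.93 with a standard error of 0.23 and an interval of 0.41 to 1.45, and its adjusted p of 0.052 missed the threshold. Against Cdk9-KD the log2FC was 0.98 and passed (adjusted p = 0.0315), and against the hnRNPK-KD-labelled libraries it was 0.87 and did not (adjusted p = 0.0552). Against control, Esrp2 passed with DESeq2 (adjusted p = 0.0144), with the likelihood ratio test (0.0109), with library totals in place of TMM (0.0376) and in a fit of only the 4 libraries compared (0.0392). It also passed when replicate 1 or 2 of the hnRNPK-KD-labelled libraries was left out (0.0426 and 0.0419). Over all 16 alternatives its adjusted p lay between 0.0109 and 0.273. The call against Cdk9-KD was lost with no filter on low counts (adjusted p = 0.0551) and without any of the 4 libraries compared, where the adjusted p was 0.0915 and 0.165 without Sox2-KD replicate 1 and 2 and 0.097 and 0.106 without Cdk9-KD replicate 1 and 2.

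Exons of Esrp2 overlap 219 bases of Nfatc3 and 119 bases of 1810019D21Rik on the opposite strand. Whether the counts used strand is not given in the sources used here, so that reads from these overlaps cannot be told apart. Nfatc3 held 1706 and 1691 counts in control and 1898 and 1620 in Sox2-KD, while Esrp2 held 180 and 200 counts in control and 365 and 369 in Sox2-KD. These are raw counts, and the part of the overlaps in the counts of Esrp2 was not tested. The overlaps of Mbnl2 with Gm26679 (86 bases, 0 to 6 counts) and of Esrp1 with Gm26663 (127 bases) are also on the opposite strand.

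Esrp1, the paralog that usually accompanies Esrp2 in epithelia, was close to the limit of detection. It had 7 and 21 counts in control, 20 and 42 in Sox2-KD, 40 and 10 in the hnRNPK-KD-labelled libraries, and 17 and 37 in Cdk9-KD. In CPM these were 0.394 and 1.2, 1.1 and 2.4, 2.35 and 0.582, and 0.993 and 2.19, and every group overlapped every other. The log2FC in Sox2-KD against control was 1.12 with an interval of −0.52 to 2.76 (adjusted p = 0.455). Esrp1 passed in no comparison, and its libraries differed within a group by up to 4.03 times, so that a change was not detectable with these counts and this spread. Per length of merged exons, Esrp2 made up between 87.7% and 97.4% of the sum of both Esrp genes in each library. With the longest transcript as the length, this was between 84.3% and 96.6%.

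Rbfox2, the only Rbfox gene that passed the filter on low counts, was 173 CPM in both control libraries, 151 and 152 in Sox2-KD, 177 and 182 in the hnRNPK-KD-labelled libraries, and 158 and 179 in Cdk9-KD. The Sox2-KD libraries were below the other 6, but the log2FC against control was only −0.19 with an interval of −0.48 to 0.10 (adjusted p = 0.483). Rbfox1 and Rbfox3 had at most 7 and 3 counts in a library. Celf1, which also takes part in mRNA decay, was 367 and 409 CPM in control, 357 and 304 in Sox2-KD, 434 and 390 in the hnRNPK-KD-labelled libraries, and 311 and 429 in Cdk9-KD. Its log2FC against control was −0.23 in Sox2-KD with an interval of −0.62 to 0.16, 0.09 in the hnRNPK-KD-labelled libraries and −0.07 in Cdk9-KD (adjusted p = 0.523, 0.954 and 0.938). For both genes the intervals in Sox2-KD leave out a log2FC of 0.6 in the upward direction, and for Rbfox2 also a fall by 0.6.

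**Figure D2:**
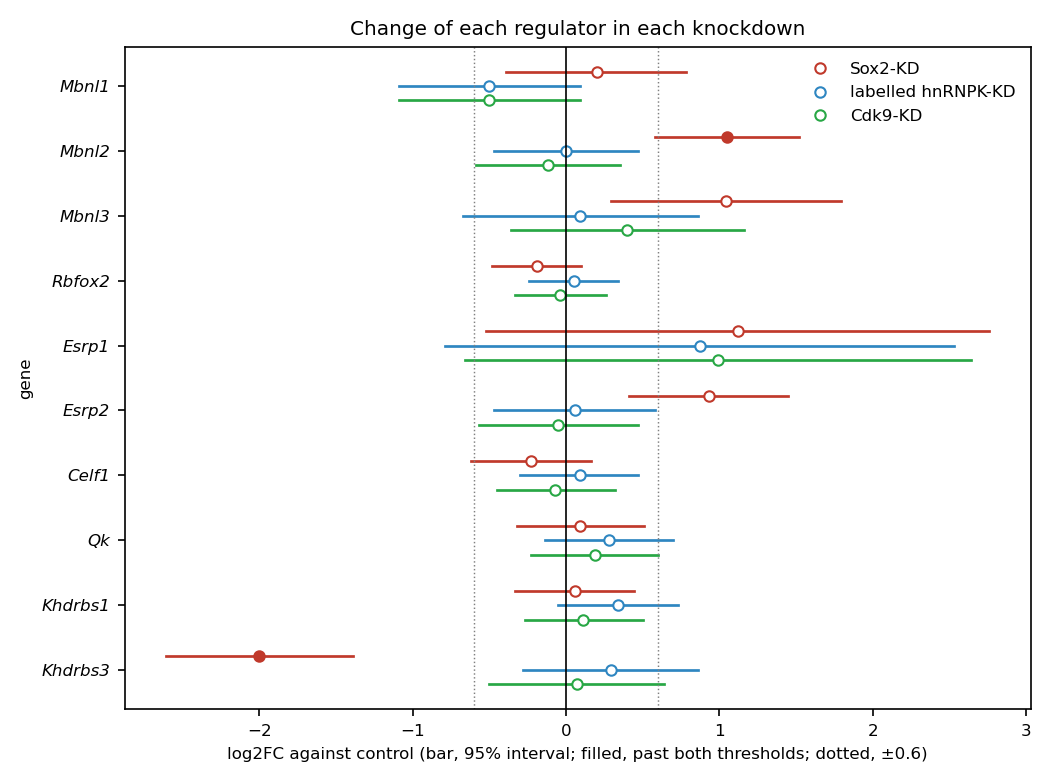
The log2FC against control of each regulator in Sox2-KD, the hnRNPK-KD-labelled libraries and Cdk9-KD, with 95% intervals from the edgeR fit and dotted lines at ±0.6. Filled points, those past both thresholds, are Mbnl2 at 1.05 and Khdrbs3 at −2.00 in Sox2-KD, and the widest intervals are those of Esrp1.

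In the hnRNPK-KD-labelled libraries, 0 of the 10 genes passed with edgeR, DESeq2 or the likelihood ratio test, and 0 had an unadjusted p under 0.05. Over all genes, 0% passed with edgeR there, 0.448% with DESeq2 and 0.527% with the likelihood ratio test. Against control, Khdrbs1 had a log2FC of 0.34 (interval −0.05 to 0.73) and Mbnl1 one of −0.50 (interval −1.09 to 0.09). Hnrnpk was lower than control in replicate 1 of these libraries and not in replicate 2, so that each gene was also compared with either one left out. The log2FC of Mbnl2 was then −0.37 without replicate 1 and 0.26 without replicate 2, that of Esrp2 −0.26 and 0.28, and that of Esrp1 −0.46 and 1.52, none of which passed. In Cdk9-KD 0 of the 10 passed with any of the 3 tests and 0 had an unadjusted p under 0.05. Of all genes, 0.139% passed there with edgeR, 1.34% with DESeq2 and 1.69% with the likelihood ratio test. Between the hnRNPK-KD-labelled libraries and Cdk9-KD 0 of the 10 passed with any of the 3 tests and 0 had an unadjusted p under 0.05. Of all genes, 0% passed in that comparison with edgeR, 0.297% with DESeq2 and 0.406% with the likelihood ratio test.

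With edgeR the same 2 genes passed in Sox2-KD against the hnRNPK-KD-labelled libraries, where 5.9% of all genes passed, and these 2 with Esrp2 in Sox2-KD against Cdk9-KD, where 7.33% did. DESeq2 and the likelihood ratio test called all 3 genes in both comparisons. Of all genes, DESeq2 called 7.73% and 8.68% there, and the likelihood ratio test 10.2% and 11.3%. In the test for any difference among the 4 groups, Khdrbs3 (adjusted p = 0.0053) and Mbnl2 (adjusted p = 0.0155) passed, Esrp2 had an adjusted p of 0.052, and 6.06% of all genes passed. The comparisons against control use the same 2 control libraries, and those with Sox2-KD the same 2 Sox2-KD libraries, so that they are not independent. In Sox2-KD, 7 of the 10 genes had both libraries outside the range of the control libraries, 4 above and 3 below, against 53.3% of all genes tested. The count was 5 of 10 in the hnRNPK-KD-labelled libraries (39.1% of all genes) and 2 of 10 in Cdk9-KD (39.2% of all genes). The median log2FC of the 10 genes in Sox2-KD was 0.14 against 0.02 over all genes, and the median size of the change was 0.58 against 0.28. The 0.58 lies in a gap between Celf1 (log2FC −0.23) and Esrp2 (log2FC 0.93), where none of the 10 genes falls. Among the genes above the gap are Esrp1 and Mbnl3, which were read with few counts and did not pass.

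To compare levels between genes, CPM were divided by the length of each gene's merged exons. In control, Celf1 was highest at 45.9 CPM per kb ± 3.53 (SD, n = 2), followed by Khdrbs1 at 33.3 ± 6.45, Qk at 28.9 ± 0.808 and Rbfox2 at 21.3 ± 0.0415. A gap separated these from Khdrbs3 at 7.66 ± 0.718, Mbnl2 at 3.83 ± 0.134 and Esrp2 at 2.49 ± 0.215. Mbnl1 at 0.715 ± 0.15, Mbnl3 at 0.26 ± 0.052 and Esrp1 at 0.127 ± 0.0907 were lowest. Of neighbours in this order, only Khdrbs1 and Qk had control libraries that overlapped. With the longest transcript as the length, Khdrbs1 came first at 57.2 CPM per kb, before Celf1 at 49.4 and Qk at 48.2, and the order of the other 7 was the same. In Sox2-KD, Mbnl2 at 7.94 CPM per kb ± 0.308 and Esrp2 at 4.74 ± 0.163 stood above Khdrbs3 at 1.91 ± 0.857, which in control was above both. The order of these 3 was that of control in both other knockdowns.

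**Figure D3:**
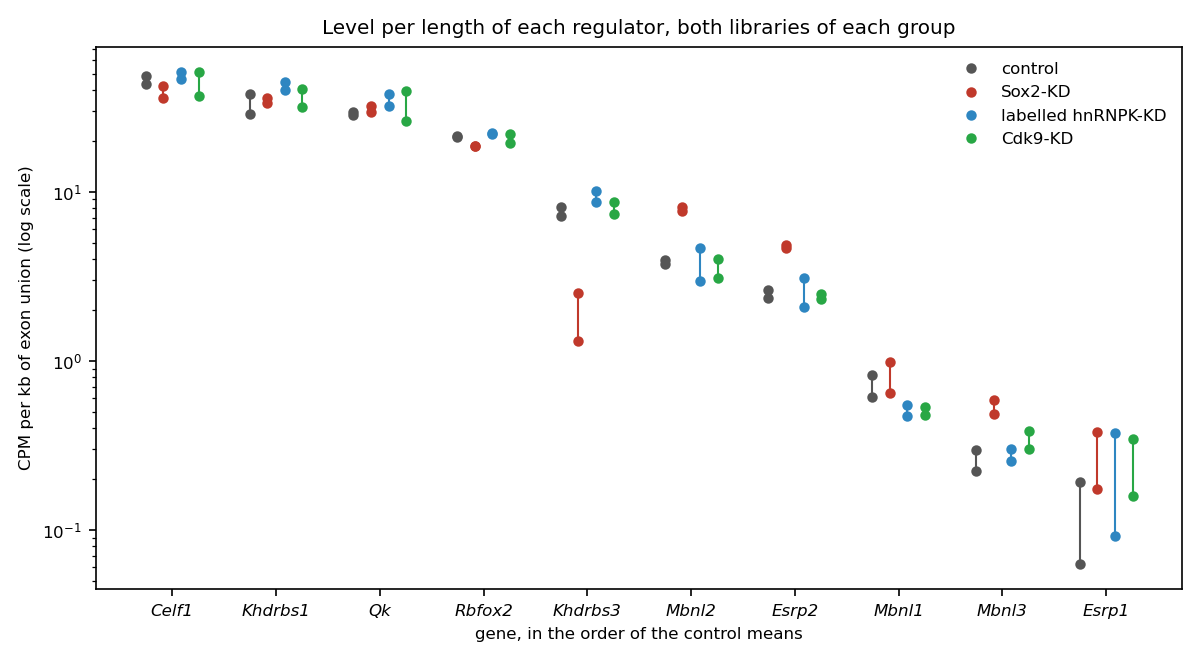
Level of each regulator in CPM per kb of merged exons, on a log axis, with a point for each library, a line joining the 2 libraries of a group and genes in the order of their control means. Khdrbs3 falls from 7.66 in control to 1.91 in Sox2-KD, below Mbnl2 and Esrp2.

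A list of 34 related regulators, made of the other CELF, RBFOX and KHDRBS genes and of NOVA, PTBP, SRRM, ELAVL, TIA, Musashi, RBPMS, RAVER and RBM genes, was read beside the 10, and 27 of them were tested. Against control, 0 of the 27 passed with edgeR in any knockdown, with an unadjusted p under 0.05 for 4 in Sox2-KD, 3 in the hnRNPK-KD-labelled libraries and 1 in Cdk9-KD. In Sox2-KD, DESeq2 called 1, Rbm20, and the likelihood ratio test called 2, Rbm20 and Elavl4, while both called 0 in the other knockdowns. Their median log2FC in Sox2-KD was −0.11 against 0.02 over all genes. Rbm20, known for the splicing of titin in heart, was 1.69 and 1.72 CPM in control and 5.66 and 4.11 in Sox2-KD, on 72 to 103 counts in the latter. Its log2FC against control was 1.52 (adjusted p = 0.0509), and it passed against the hnRNPK-KD-labelled libraries (2.83-fold, adjusted p = 0.0445) and against Cdk9-KD (3.32-fold, adjusted p = 0.0229). Msi2, a Musashi RNA-binding protein, was lower in Sox2-KD than in the hnRNPK-KD-labelled libraries (log2FC −0.62, adjusted p = 0.0379), with 120 and 108 CPM against 184 and 166. Raver2, a partner of PTBP, was lower in Sox2-KD than in Cdk9-KD (log2FC −0.98, adjusted p = 0.0418), with 5.71 and 6.91 CPM against 11.3 and 13.5. It was 9.29 and 11.6 CPM in control and lowest in the hnRNPK-KD-labelled libraries, at 4.98 and 5.24 CPM, which DESeq2 and the likelihood ratio test also called lower than Cdk9-KD. Elavl4 had 2 and 0 counts in Sox2-KD and 10 and 26 in Cdk9-KD, at least 6.31-fold lower with a floor of 3 counts per library (adjusted p = 0.0248). Each of these calls of Rbm20, Msi2, Raver2 and Elavl4 was lost without Sox2-KD replicate 2, and without at least 1 other library, with adjusted p up to 0.319 for Msi2. The Rbm20 call against the hnRNPK-KD-labelled libraries was lost in 8 of 16 alternatives, with no filter and in the fit of only 4 libraries among them. The Msi2 call was lost in 9 of 16 alternatives, library totals, 10 counts in every library and the replicate number as a block among them. The Raver2 call was lost in 12 of 17, among them library totals, both other filters, the fit of only 4 libraries and each of the 8 libraries left out. Ptbp1, the repressor of neuronal exons, was 494 and 561 CPM in control and 492 and 485 in Sox2-KD.

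Genes typical of epithelia were listed because ESRP proteins mark epithelial splicing, and with earlier results of these data known. Of 11 tested, 5 passed as higher in Sox2-KD against control and 0 as lower. Over all genes, 2.63% passed as higher. The 5 were the keratins Krt8, Krt18 and Krt19 and the claudins Cldn4 and Cldn7. Their log2FC was 2.97 for Krt8, 4.34 for Krt18, 2.89 for Krt19, 1.14 for Cldn4 and 2.63 for Cldn7. The median of the list was 1.03 against 0.02 over all genes. DESeq2 and the likelihood ratio test also called Epcam, at 75.7 and 87.7 CPM in control and 114 and 142 in Sox2-KD. Krt8 and Krt18 are also among the trophectoderm markers summed above. Cdh1, which encodes E-cadherin, was 406 and 493 CPM in control and 565 and 684 in Sox2-KD and did not pass against control. Of 7 mesenchymal genes tested, only Vim passed in Sox2-KD against control, as lower (log2FC −1.16, adjusted p = 0.0171). It was 280 and 260 CPM in control and 148 and 93.1 in Sox2-KD. Cdh2 was 8.39 and 5.73 CPM in control and 4.73 and 2 in Sox2-KD. It passed as lower in Sox2-KD against the hnRNPK-KD-labelled libraries (log2FC −2.25, adjusted p = 0.0244). Of the 7, 3 had a log2FC above 0 in Sox2-KD against control. Krt8 and Krt18 passed with any 1 library left out. Krt19, Cldn4, Cldn7 and Vim did not pass without control replicate 1, control replicate 2 or Sox2-KD replicate 2, with adjusted p up to 0.0803, 0.28, 0.118 and 0.122.

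Total counts of genes whose pre-mRNA is a known target of these families were read last. Of 11 tested with edgeR, Fgfr2 rose and Enah fell in Sox2-KD, both of them known for exons that ESRP proteins control. DESeq2 and the likelihood ratio test also called Mef2d, which was 50.7 and 51.7 CPM in control and 72.6 and 88.2 in Sox2-KD. Fgfr2 was 0.563 and 0.458 CPM in control and 4.07 and 3.42 in Sox2-KD, a log2FC of 2.86 with an adjusted p of 0.0141, on 10 and 8 counts in control. Enah was 284 and 322 CPM in control and 186 and 189 in Sox2-KD, a log2FC of −0.69 with an adjusted p of 0.0349. Both calls were lost without any 1 of the 4 libraries compared, with adjusted p up to 0.117 for Fgfr2 and 0.208 for Enah. These are changes in the amount of mRNA per gene and hold no information on which exons were used. Foxp1, which carries an exon specific to ESCs that MBNL proteins repress, had 30 and 44 counts in control and 18 and 21 in Sox2-KD. It did not pass against control. In Sox2-KD against Cdk9-KD, 5 of 11 targets passed, where 7.33% of all genes did. Fgfr2 and Tnnt2 were higher, and Enah, Insr and Foxp1 (log2FC −1.88, adjusted p = 0.0199) lower. The Foxp1 call was lost in 3 of 17 alternatives. Against the hnRNPK-KD-labelled libraries, Tnnt2 passed as higher and Enah as lower. Tnnt2 had at most 2 counts in a library of either group. In the hnRNPK-KD-labelled libraries and in Cdk9-KD, 0 genes of the epithelial, mesenchymal and target lists passed with edgeR against control. An unadjusted p under 0.05 was found there for 2, 1 and 3 genes of these lists in the hnRNPK-KD-labelled libraries and for 2, 1 and 2 in Cdk9-KD. DESeq2 and the likelihood ratio test called 0 of them in the former, while in Cdk9-KD DESeq2 called Epcam and Grhl2 and the likelihood ratio test Epcam and Tnnt2.

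**Figure D4:**
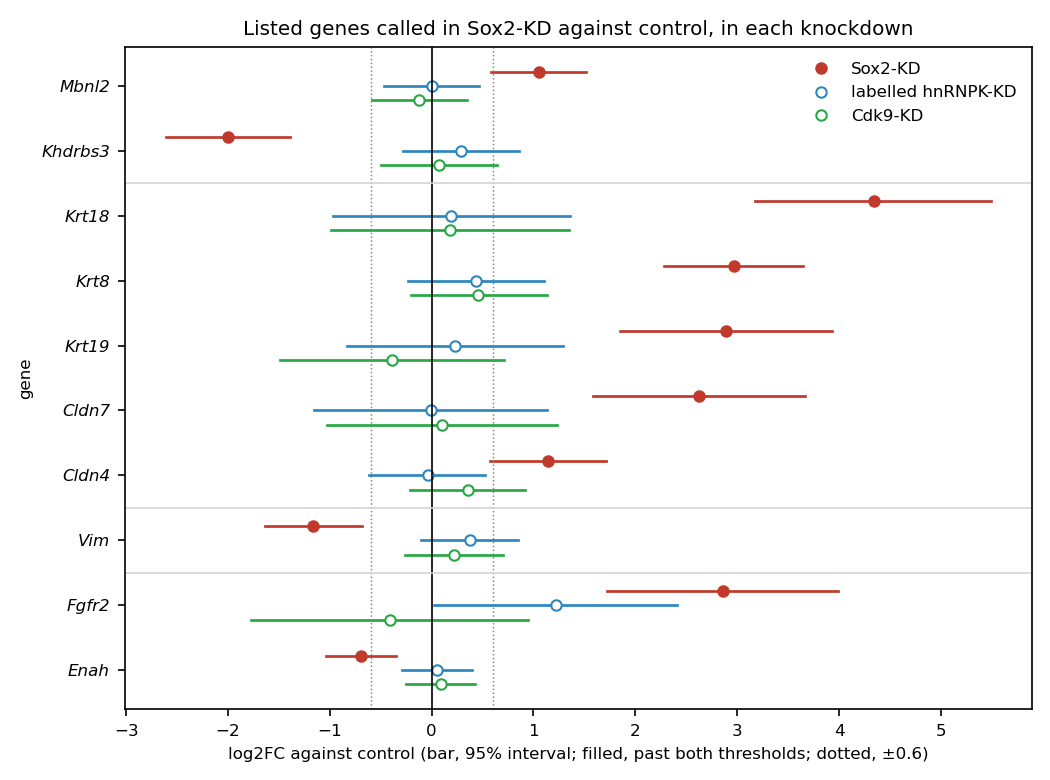
The log2FC against control in each knockdown, with 95% intervals. Shown are the 2 regulators and the 8 epithelial, mesenchymal and target genes that passed both thresholds in Sox2-KD against control. Genes found only on the cell type marker lists are not shown. Grey lines lie between the regulators, the epithelial genes, Vim and the splicing targets. Filled points mark calls, which are from −2.00 for Khdrbs3 to 4.34 for Krt18 in Sox2-KD, and no gene shown passed in the other knockdowns.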

How the data were processed

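Poly(A) RNA of 8 libraries was sequenced on MGISEQ-2000. The authors trimmed reads with Trimmomatic, aligned them with STAR (2.7.9a in the submitters' processing notes) to mm10 with GENCODE vM23, and deposited raw counts per gene from featureCounts 2.0.1, neither normalized nor pooled. The treatment of reads shared between genes is not given in the sources used here. Symbols, positions and lengths came from GENCODE vM21 on GRCm38, where all 10 versioned identifiers were the same.

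Counts were filtered with filterByExpr (minimum count 10, total 15), which left 16504 genes and all 10 regulators. The test was edgeR 4.0.16 in R 4.3.3 (TMM, quasi-likelihood, 1 fit over all groups, no covariate, Benjamini-Hochberg adjustment over all genes), and calls needed an adjusted p below 0.05 and a log2FC beyond ±0.6. All 3 knockdowns were compared with control and with each other, 6 comparisons in all, and an F test covered the 4 groups. With 2 libraries in a group, the p-values rest on a spread estimated over all 4 groups together and shared in part across genes. Near copies were sought with blastn 2.17.0 (at least 95% identity over 200 bases). Promoter windows are from RefSeq, GRCm38.p6.

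The 10 genes and all gene lists were chosen with earlier results of these data known. Named beside the 10 are the related regulators called in a comparison, the 5 genes most correlated with the regulator of smallest F test p, and list members chosen after their values were seen. The fit was tested on simulated data. Alternatives were DESeq2 1.42.0, its size factors, library totals, other filters and thresholds, the likelihood ratio test, fits of 4 libraries, the replicate number as a block, and leaving out each library. Python 3.11.15 and matplotlib 3.10.9 drew the figures.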

Additional observations from a re-analysis of the deposited data

Results flagged for a closer look

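The knockdowns differed from each other in 3 of the 10 genes by a direct test between 2 groups. Mbnl2 was higher in Sox2-KD than in the libraries labelled hnRNPK-KD (log2FC 1.05) and than in Cdk9-KD (log2FC 1.17), in 2 of 2 libraries each. Khdrbs3 was lower in Sox2-KD than in the libraries labelled hnRNPK-KD (log2FC −2.29) and than in Cdk9-KD (log2FC −2.07), again in both libraries. Esrp2 was higher in Sox2-KD than in Cdk9-KD (log2FC 0.98, adjusted p = 0.0315), a call lost in 5 of 17 alternatives.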

How the results depend on the processing

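Against control in Sox2-KD, Khdrbs3 passed under every alternative tried, and Mbnl2 under every one except those that left out 1 of the 4 libraries compared. Esrp2 was also called with DESeq2, library totals, the likelihood ratio test, the 4 libraries alone, an adjusted p under 0.1, or 1 hnRNPK-KD-labelled library left out. When each of the 8 libraries was left out in turn, the regulators called in Sox2-KD ranged from 1 to 3 against control, from 1 to 2 against the hnRNPK-KD-labelled libraries and from 1 to 3 against Cdk9-KD, and those called among the 4 groups from 1 to 3. The single gene left was Khdrbs3 each time, without control replicate 1 or 2 (against control), Sox2-KD replicate 1 (against control and among the groups), Sox2-KD replicate 2 (in all of these) or replicate 2 of the hnRNPK-KD-labelled libraries (against that group). Fewer libraries leave fewer degrees of freedom.

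Of 1444 alternative values of a log2FC, 23 had the other sign, all with a library left out and none in a comparison where the gene was called. The log2FC against control then ranged from −0.15 to 0.47 for Mbnl1 and from −0.15 to 0.26 for Khdrbs1 in Sox2-KD. In the hnRNPK-KD-labelled libraries it ranged from −0.37 to 0.26 for Mbnl2, from −0.11 to 0.29 for Mbnl3, from −0.46 to 1.86 for Esrp1, from −0.26 to 0.28 for Esrp2 and from −0.01 to 0.16 for Celf1. In Cdk9-KD it ranged from −0.32 to 0.03 for Mbnl2, from −0.13 to 0.02 for Rbfox2, from −0.17 to 0.01 for Esrp2, from −0.32 to 0.11 for Celf1, from −0.14 to 0.42 for Qk, from −0.11 to 0.30 for Khdrbs1 and from −0.08 to 0.19 for Khdrbs3.

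Groups share replicate numbers. The deviations of same-numbered libraries correlated between −0.22 (Sox2-KD and Cdk9-KD) and 0.21 (control and Sox2-KD). These values cannot show whether same-numbered libraries were handled together. With the number as a replicate block, 2 regulators were called in Sox2-KD against control, 2 against the hnRNPK-KD-labelled libraries and 3 against Cdk9-KD, and the block changed no call of the 10 genes. Over all genes it gave 695 calls in place of 713 in Sox2-KD and 15 in place of 23 in Cdk9-KD against control. With the Cdk9-KD numbers crossed, an alternative added after seeing the data, Sox2-KD against Cdk9-KD gave 1331 calls in place of 1210. The likelihood ratio test called 1350 genes in Sox2-KD, 87 in the hnRNPK-KD-labelled libraries and 279 in Cdk9-KD, and DESeq2 called 1029, 74 and 221, in place of 713, 0 and 23 with the quasi-likelihood test. An adjusted p under 0.1 gave 1213, 2 and 58. The depth limits Esrp1 (7 to 42 counts per library) and Mbnl3 (34 to 93).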
